A study of Mus musculus with 2 samples.

Results

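The 10 genes Myd88, Tirap, Ticam1, Irak1, Irak2, Irak3, Irak4, Sigirr, Tbk1 and Ikbke encode adaptors, kinases and brakes of Toll-like receptor signalling. They were taken as all non-control probes that carry 1 of these symbols on the array. This gave 14 probes in 23 spots, of 34761 genes, 55677 probes and 59305 spots in all. Total RNA was measured on 2 one-colour (Cy3) Agilent mouse arrays, 1 of LPS-treated CMT93 cells and 1 of control CMT93 cells. CMT93 is an established carcinoma line from the rectum of a C57BL/ICRF mouse aged 19 months, and both cultures were grown in DMEM. LPS, or lipopolysaccharide, is a glycolipid on the surface of Gram-negative bacteria, and the treated cells were given 3 µg/mL of it for 24 h. The other cells are titled control. The treatment text stands on both samples and was taken to apply only to the one titled LPS-stimulated, so the untreated state of the control rests on its title. Each group was 1 array of 1 cell line, so the groups could not be tested against each other and no difference below has a replicate check. In such bulk RNA, fewer cells of a type and less RNA per cell cannot be told apart.

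Toll-like receptors carry inside the cell a TIR domain, a fold that binds the same fold in adaptor proteins. On the plasma membrane, the LPS receptor TLR4 recruits TIRAP and MyD88. MyD88 gathers the kinases IRAK4, IRAK1 and IRAK2, which pass the signal to TRAF6, the TAK1 and IKK kinases and the transcription factor NF-kB. From endosomes TLR4 signals through a bridging adaptor, TRAM, to TRIF, the product of Ticam1. TRIF activates the kinases TBK1 and IKK-epsilon (Ikbke), which phosphorylate interferon regulatory factors. IRAK3, also called IRAK-M, and the receptor-like protein SIGIRR restrain this signalling, and SIGIRR is known for doing so in the epithelium of the gut.

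The sequences of 4 probes are shown because the results turn on them. They are those of the 3 genes with the largest positive differences and the dimmer Irak2 probe, which does not stand for its gene in the counts. Each reads 5′ to 3′ as in the array files, with its mm9 position.
Ikbke, chr1:133151809-133151868, minus strand: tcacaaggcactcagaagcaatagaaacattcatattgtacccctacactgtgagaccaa
Irak3, chr10:119578999-119579058, minus strand: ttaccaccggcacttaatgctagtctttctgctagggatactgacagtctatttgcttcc
Myd88, chr9:119245322-119245381, minus strand: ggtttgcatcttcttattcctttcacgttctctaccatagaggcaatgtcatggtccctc
Irak2 dimmer probe, chr6:113643695-113643754, plus strand: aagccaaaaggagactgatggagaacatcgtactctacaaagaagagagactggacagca

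All 10 genes, all 14 probes and all 23 spots were well above background on both arrays. So were 20380 of 34761 genes, 29053 of 55677 probes and 31353 of 59305 spots in all. No member spot was flagged, and no spot on either array was saturated. Ikbke and Irak3 were at least 2-fold higher in LPS-treated cells, none of the 10 was 2-fold lower, and 8 were neither. Over all 20380 genes measured on both arrays, 1.46% reached 2-fold upward and 0.569% downward on the LPS array. The 10 members had a median log2 difference of 0.17, against -0.02 over all measured genes, and 7 of the 10 were above 0, as were 44.6% of all measured genes. Apart from Ikbke and Irak3, no member reached 1.5-fold in either direction, a size that 3.59% of measured genes reached upward and 2.65% downward. No member reached 4-fold, which 0.383% of measured genes did upward and 0.0834% downward.

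Log2 differences are LPS minus control after each array was scaled to its 75th percentile, 629 signal units on the LPS array and 649 on the control array. The signals quoted are the processed signals before that scaling, so a scaled difference is slightly more positive than their plain ratio. Signals are compared only within a probe, since probes differ in how strongly they bind.
Each difference has 2 errors, and neither covers the spread between cultures. The first, given after ±, is the SD between repeated spots of 1 probe, taken for single spots from replicated probes of like brightness. The second is the scanner software's own error model, mainly a 10% error on each signal, which puts 0.20 to 0.22 on a log2 difference. By the second, larger error, 4 of the 10 genes differed by more than their error on the brightest probe, and 6 did not. Ikbke, Irak3 and Myd88 were higher by more than that error and Sigirr was lower. Of all measured genes, 13.1% were higher and 14.8% lower by more than their own such error.

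**Figure D1:**
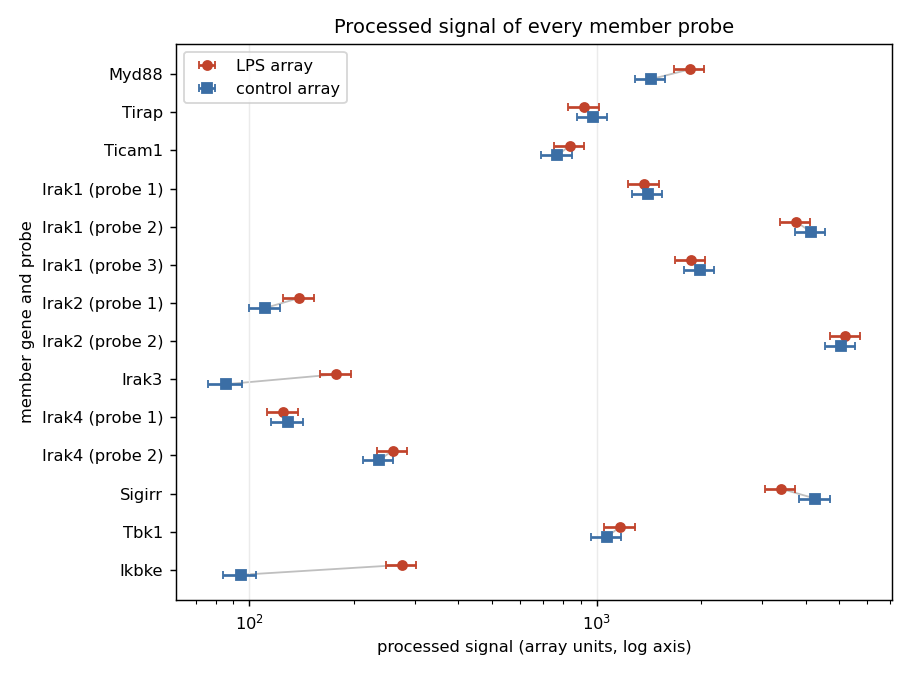
Processed signal (array units, log axis) of every member probe, with the LPS array as red circles and the control array as blue squares. Bars are the scanner software's signal error, and only the 2 points of a row can be compared. The arrays lie farthest apart for Ikbke (275 on the LPS array and 94.3 on the control array) and Irak3 (178 on the LPS array and 85.6 on the control array).

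Among the adaptors, Myd88, which encodes the adaptor shared by nearly all Toll-like receptors and the interleukin-1 receptors, was modestly higher in LPS-treated cells. Its probe was printed 10 times on each array, which gives the best-measured value of the group. The spots lay between 1745 and 1966 with a median of 1836 on the LPS array, and between 1350 and 1514 with a median of 1443 on the control array. Every spot on the LPS array was thus brighter than every spot on the control array. How many other replicated probes separate in this way was not counted. The other member probes have a single spot, so none of them could show it. The mean signal was 1858 ± 71 on the LPS array and 1433 ± 49 on the control array (SD, n = 10 spots of 1 array each). The 10 spot-wise log2 differences ran from 0.38 to 0.49, with a mean of 0.42 ± 0.04, or 1.34-fold. Of all measured genes, 6.22% had a larger positive difference. These are spots of 1 RNA sample per group, so they show that the 2 arrays differ and not that cultures do.

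**Figure D2:**
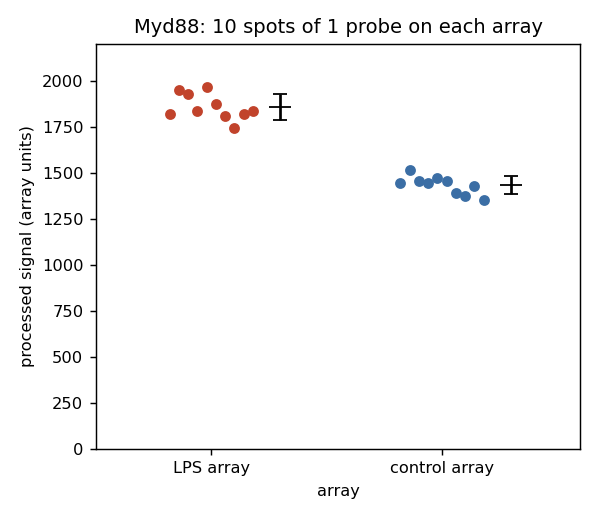
Processed signal (array units) of the 10 spots of the Myd88 probe on the LPS array (left) and the control array (right). The bar beside each set is the mean and SD over spots, 1858 ± 71 on the LPS array and 1433 ± 49 on the control array, and the 2 sets do not overlap.

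Tirap and Ticam1 differed by less than the scanner's error. Tirap, whose product brings MyD88 to TLR4 at the membrane, had signals of 921 on the LPS array and 973 on the control array, a log2 difference of -0.03 ± 0.04. Ticam1, which encodes TRIF, had 838 on the LPS array and 770 on the control array, a difference of 0.17 ± 0.04 or 1.12-fold. The 3 adaptor genes thus ran from -0.03 to 0.42. Their probes lie on chromosome 9 for Tirap (34994936 to 34994995) and on chromosome 17 for Ticam1 (56409265 to 56409324), both on the minus strand of mm9.

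The kinases that MyD88 recruits were close to their control level. Irak4 encodes the kinase that starts the cascade. Its brighter probe read 259 on the LPS array and 236 on the control array, a difference of 0.18 ± 0.08. Its dimmer probe read 125 on the LPS array and 129 on the control array and gave a difference of 0.00 ± 0.08. The dimmer probe has 60 bases but spans 728 bases of chromosome 15 (94384447 to 94385174), so it crosses an exon boundary, while the brighter one is unbroken (94397743 to 94397802). Both values are within the scanner's error of 0.21.

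Irak1, whose kinase is taken up by the receptor complex after IRAK4, had 3 probes on the X chromosome, and all 3 gave small differences. The brightest read 3752 on the LPS array and 4135 on the control array, a difference of -0.10 ± 0.04. The probe designed on transcript variant 5 read 1869 on the LPS array and 1978 on the control array, at -0.04 ± 0.04. The third probe read 1372 on the LPS array and 1406 on the control array, at 0.01 ± 0.04. The 3 values span -0.10 to 0.01, within the scanner's error of 0.20.

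Irak2 encodes a relative of IRAK1 that sustains the response, and it had 2 probes on chromosome 6. The first probe read 139 on the LPS array and 111 on the control array, a difference of 0.37 ± 0.08 or 1.29-fold, beyond the scanner's error of 0.21, and of 0.25 with normexp. The second read 5206 on the LPS array and 5056 on the control array, a difference of 0.09 ± 0.03, within the error of 0.20. The probes differed by 0.28, within their combined scanner error of 0.29. The second is the brightest and so stands for the gene in the counts above. Neither probe reached 1.5-fold.

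Of the brakes, Irak3 was higher and Sigirr slightly lower in LPS-treated cells. Irak3 encodes a relative of the IRAK kinases that lacks strong kinase activity and is best known from macrophages, where it limits repeated responses to LPS. Its probe read 178 on the LPS array and 85.6 on the control array, a difference of 1.10 ± 0.08 or 2.15-fold, and 1.27% of measured genes had a larger one. With normexp background correction, which adds 50 to every signal before the log, the difference was 0.72, under 2-fold. Under the 5 other corrections and scalings tried it lay between 1.09 and 1.17.

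Since Irak3 is best known from macrophages, their markers are given beside it. Of 12 macrophage markers, 4 were well above background on both arrays, 3 on the LPS array only, 1 on the control array only and 4 on neither. Lyz2, Tyrobp, Laptm5 and Fcgr1 were on neither. The pan-leukocyte gene Ptprc was detected in control cells alone and was at least 3.03-fold lower in LPS-treated cells, or at least 1.49-fold with normexp. Adgre1, Mrc1 and Mpeg1 were detected in LPS-treated cells alone, with bounds of at least 1.96-fold, 1.83-fold and 1.52-fold higher, or 1.29-fold, 1.19-fold and 1.15-fold with normexp. Itgam, Csf1r and Cd68, measured on both arrays, stood at 0.09, 0.06 and 0.30 on their brightest probes. Their measured probes ran from -0.43 to 0.09 for Itgam, 0.01 to 0.33 for Csf1r and 0.30 to 0.43 for Cd68. The summed signal of the 12 was 10925 on the LPS array and 10307 on the control array, of which Itgam alone gave 7780 on the LPS array and 7516 on the control array. Of the 4 measured on both arrays, Aif1 alone was at least 2-fold higher, with signals of 172 on the LPS array and 39.3 on the control array and a log2 difference of 2.18, or 1.32 with normexp. The part of other cells in the Irak3 and Ikbke values was not tested. Of 13 epithelial markers, 12 were measured on both arrays, as were 20380 of 34761 genes in all. Epcam, Krt8, Krt18 and Cdh1 were among the 12, and Cdx2 was above background on neither array. Cdx1 was dim, at 30.0 on the LPS array and 36.7 on the control array. Genes of other cell types were measured too, such as Kdr of endothelium (5362 on the LPS array and 5359 on the control array). Detection alone thus does not establish the line's cell type. Beside the 44.6% of all measured genes above 0, 1 of the 12 epithelial markers was above 0 and 11 were below. Their median log2 difference was -0.25. Lgals4, which encodes a galectin of the gut epithelium, was the only one at least 2-fold lower, at -1.45, with signals of 16197 on the LPS array and 45786 on the control array.

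Sigirr encodes a single-immunoglobulin receptor with a TIR domain that sequesters adaptors. Its signal was 3387 on the LPS array and 4260 on the control array, a difference of -0.29 ± 0.04, which makes it 1.22-fold lower in LPS-treated cells. This is the lowest of the 10 genes, and 10.4% of measured genes lay lower still. Its probe is on chromosome 7 (148277090 to 148277149).

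Of the 2 kinases downstream of TRIF, Ikbke was higher in LPS-treated cells and Tbk1 was near its control level. Ikbke encodes the inducible IKK-related kinase IKK-epsilon. Its signal was 275 on the LPS array and 94.3 on the control array, a difference of 1.59 ± 0.08 or 3.01-fold, and 0.628% of measured genes had a larger one. Normexp gave 1.13, still past 2-fold, and the other corrections and scalings gave 1.57 to 1.65. Tbk1 encodes the related kinase that is present in most cells without stimulation. It read 1169 on the LPS array and 1071 on the control array, a difference of 0.17 ± 0.04 or 1.13-fold, within the scanner's error. Its 60-base probe spans 224 bases of chromosome 10 (120988364 to 120988587) and so also crosses an exon boundary.

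**Figure D3:**
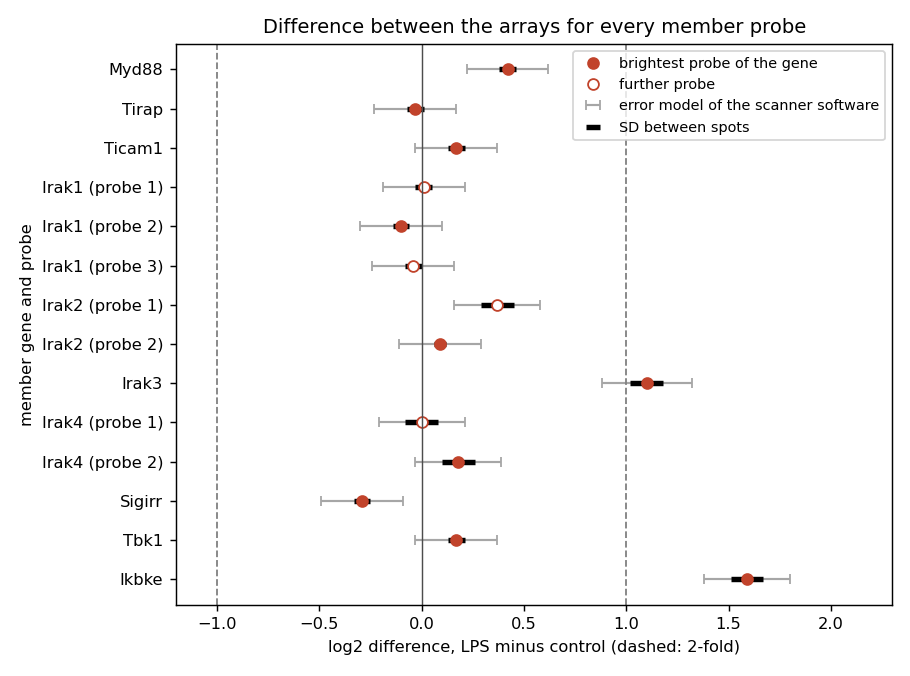
Log2 difference, LPS minus control, of each member probe, with filled points for the brightest probe of a gene and open points for further probes. Thick bars are the SD between spots and thin bars the scanner software's error, dashed lines mark 2-fold, and Ikbke (1.59) and Irak3 (1.10) lie past the upper line while Sigirr (-0.29) is lowest.

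Ikbke and Irak3 are dim probes, in the second of 4 brightness groups of measured genes. In that group, 1.61% of 5095 genes were at least 2-fold higher and 0.491% at least 2-fold lower, and the highest SD between spots of any replicated probe was 0.17. Both differences are several times that SD. The members from the third brightness group, which include Myd88, Tirap, Ticam1, Irak1, Sigirr and Tbk1, ran from -0.29 to 0.42.

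**Figure D4:**
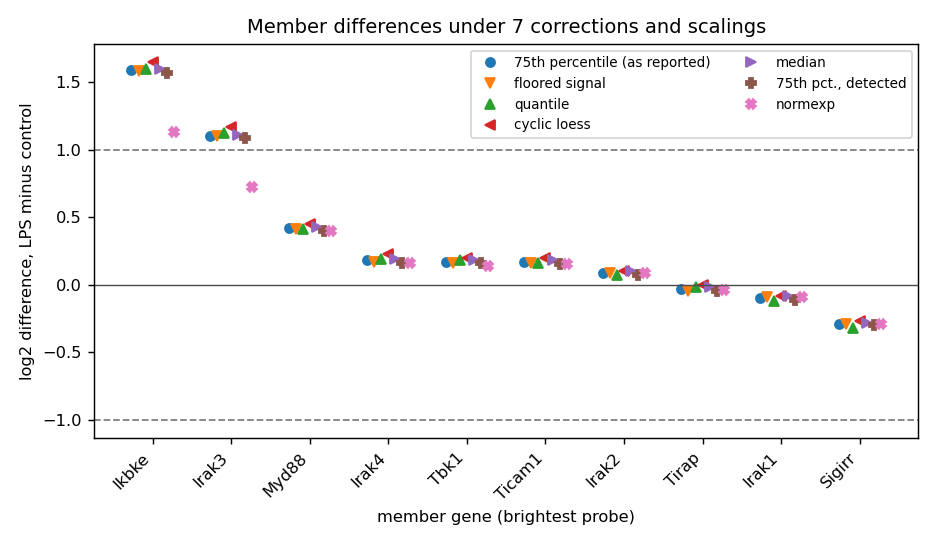
Log2 difference, LPS minus control, of each member's brightest probe under 7 background corrections and scalings, with dashed lines at 2-fold. The points of a gene lie close together except for normexp (pink crosses), which gave 1.13 for Ikbke and 0.72 for Irak3.

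RefSeq promoter sequences of GRCm38.p6, 250 bases before to 50 bases after each start, were at hand for 9 of the 10 genes in 12 windows, with none for Sigirr. These were searched on both strands for the kappaB consensus bound by NF-kB and for the core of interferon-stimulated response elements, GAAA, any 2 letters and GAAA again. The kappaB consensus was found for 1 of the 9 genes, Irak1, as a single match shared by its overlapping windows, and in 8.46% of 32851 promoters. The response element core was found in 1 window, that of Myd88, and in 3.44% of promoters, so no window held both. The Myd88 window is shown because that match is in the promoter of a member whose spots separated the arrays. No other member has repeated spots, so none could meet this choice. A link between the match and the Myd88 difference was not tested. Irak1, with the kappaB match, stood at -0.10, and its windows are not shown. In the Myd88 window, capitals mark the match, whose first base lies 40 bases before the start.
Myd88 promoter, chr9:119339969-119340268 (GRCm38.p6), minus strand: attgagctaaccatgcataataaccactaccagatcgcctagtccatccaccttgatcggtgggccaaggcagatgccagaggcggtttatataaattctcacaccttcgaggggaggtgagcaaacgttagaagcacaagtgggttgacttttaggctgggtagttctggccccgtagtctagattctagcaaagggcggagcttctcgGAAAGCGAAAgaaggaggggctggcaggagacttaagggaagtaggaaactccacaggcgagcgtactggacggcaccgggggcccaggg
These letters are a description of the window and not a binding site. The windows of Ikbke and Irak3 held neither motif, which says nothing about regions outside them.

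The genes around the members were described by 7 lists, each with counts at 2-fold. These counts stand beside the 1.46% of all measured genes that reached 2-fold upward and the 0.569% that did downward. Upstream, 9 of 17 genes of Toll-like receptors and LPS recognition were measured on both arrays. Their median was 0.17, with 2 past 2-fold upward and none downward, but 1 upward with normexp or quantile normalization. Lbp and Cd14, which deliver LPS to TLR4, stood at 1.31 and 1.02. Tlr4 stood at 0.33 and its partner Ly96 at 0.07, and Tlr6 and Tlr9 were lowest at -0.27 and -0.14. Tlr2, the receptor for bacterial lipoproteins, was detected in LPS-treated cells alone, where it was at least 2.24-fold higher, or at least 1.28-fold with normexp. Such a bound sets the LPS signal against the lowest signal called well above background on the control array, or the probe's own where that is higher.

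Several receptors of the interleukin-1 family use MyD88 and the IRAK kinases as well. The list of 9 family members also holds the decoy receptor gene Il1r2, and 4 of the 9 were measured. The interleukin-18 receptor genes Il18rap and Il18r1 stood at 1.53 and 0.73, but at 0.73 and 0.38 with normexp. Il1rl1 and Il1rap stood at 0.30 and 0.67, but at 0.21 and 0.37 with normexp. The list had a median of 0.70, with 1 gene at least 2-fold higher and none lower. Il1r1, which encodes the signalling receptor for interleukin-1, was above background on neither array (a gene picked once its values were known).

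Of 13 further adaptors and partners, 10 were measured, with 1 at least 2-fold higher, none lower and a median of 0.13. Peli3, a member of the Pellino ubiquitin ligases that act on IRAK kinases, stood at 1.59 on a dim probe, with signals of 135 on the LPS array and 46.3 on the control array, and at 0.79 with normexp. Its relatives Peli1 and Peli2 were lowest, at -0.16 and -0.08. Traf3, a ubiquitin ligase of the TRIF and MyD88 complexes, stood at 0.58. The other 3 listed genes, Ticam2, which encodes the bridging adaptor TRAM, and the adaptor genes Sarm1 and Pik3ap1, were above background on neither array. They too were picked once their values were known.

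Downstream kinase complexes stayed near 0. All 10 genes on the list of the TAK1 and IKK complexes were measured. The list also holds Map3k8, Ripk1 and Tradd, which are not subunits of either complex. None of the 10 reached 2-fold in either direction, and their median was 0.01. Map3k8, a kinase that links NF-kB signalling to ERK, was highest at 0.59, or 0.35 with normexp. Its probe was dim, at 112 on the LPS array and 76.7 on the control array. Tab2, a TAK1 adaptor, followed at 0.15, and Ikbkg and Tab1 were lowest at -0.23 and -0.14. Of the scaffolds and substrates of TBK1 and IKK-epsilon, 8 of the 10 genes on the array were measured, none reached 2-fold and the median was 0.06. Irf7, an interferon regulatory factor, was highest at 0.83 but at 0.30 with normexp, followed by the scaffold gene Tank at 0.22, and the scaffold genes Azi2 and Optn were lowest at -0.28 and -0.13. The remaining list members there were Tbkbp1, above background on the control array only with a bound under 2-fold, and Irf5, on neither array.

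The 9 measured NF-kB subunits and inhibitors had a median of 0.78, with 3 past 2-fold upward and none downward. With the mean over all probes, 2 were past 2-fold upward. Over all measured genes, the shares were 1.46% upward and 0.569% downward. Nfkbia, which encodes the inhibitor IkB-alpha, stood at 2.74 and Nfkbiz at 1.42. The third, Relb, stood at 1.27 on its brightest probe, while its 3 probes ranged from -0.04 to 1.27. Nfkbib, which encodes another inhibitor, and Rela, which encodes an activating subunit, were lowest at 0.41 and 0.04. Of 12 measured negative regulators, 3 were at least 2-fold higher and 1 was lower, with a median of -0.04. Zc3h12a, an RNase gene, and Tnip3, which encodes a partner of A20, stood at 4.19 and 3.62, or 2.81 and 3.13 with normexp. Tnfaip3, which encodes A20, was the third at 2.10. Usp18 and Socs1, brakes on interferon and cytokine receptors, were lowest at -1.25 and -0.68.

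**Figure D5:**
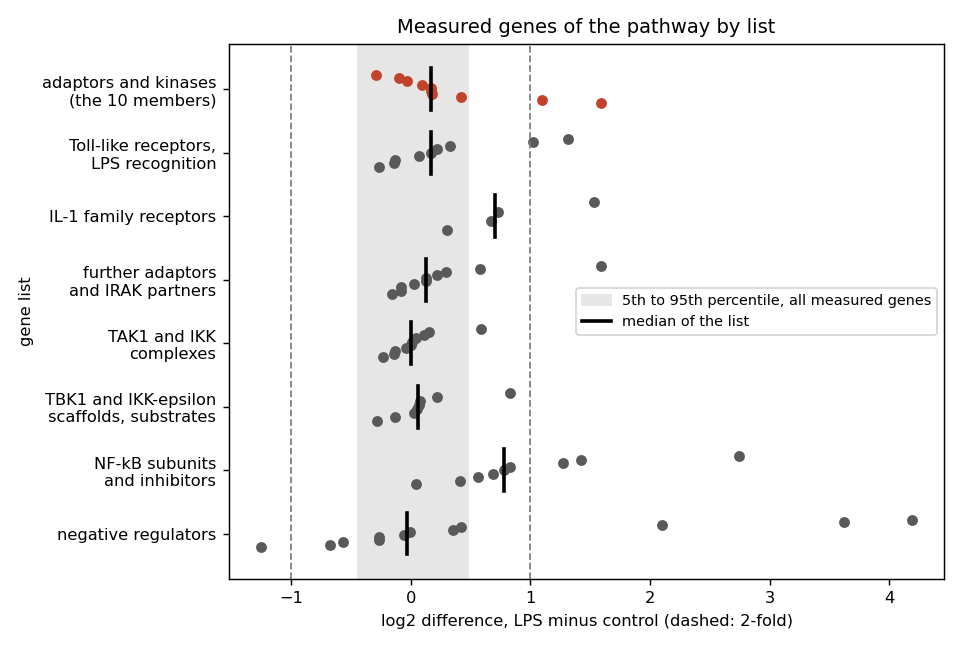
Log2 difference, LPS minus control, of the 10 members (red) and of each measured gene on 7 pathway lists (grey), with the median of each list as a black bar, dashed lines at 2-fold and the 5th to 95th percentile of all measured genes (-0.44 to 0.48) shaded. Medians run from -0.04 for negative regulators to 0.78 for NF-kB subunits and inhibitors, with the members at 0.17.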

How the data were processed

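Per the file headers, Agilent Feature Extraction 10.10.1.1 made the deposited intensity of each spot by subtracting background and removing spatial trends. The headers also give both arrays the same slide and scan, so no such batch separates them. Samples were grouped by their titles. The labels give the treatment on both samples, and it was assigned only to the one titled LPS-stimulated. Well above background was set on 54.7% of spots on the LPS array and 55.8% on the control array.

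Then 223 flagged spots and all control spots were removed, log2 intensities were scaled to each array's 75th percentile, spots of a probe were averaged, and the brightest probe stood for a gene. A gene counted as measured if both arrays had that probe well above background. Gene symbols were brought up to date through RefSeq accessions (28026 of 55677 probes matched). Probe coordinates are those of mm9 in the files, and exon or UTR positions were not analysed here. One probe sequence is not reported here. The SD between spots came from 245 replicated probes above background, in 4 brightness groups.

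The named genes are all members, the 2 highest and 2 lowest of each list, Tlr4, Ly96, Cd14 and Lbp, and genes with a bound of at least 2-fold. Relb, Tnfaip3, Tbkbp1, Irf5, Lgals4, Aif1 and the other markers given were picked outside this rule, once their values were known. The members and lists were chosen with earlier results of these data known. Of the other marker lists, 3 of 7 lymphocyte, 2 of 6 fibroblast and 2 of 5 endothelial genes were measured, beside 20380 of 34761 genes in all. None of those measured was at least 2-fold different, beside 1.46% of all measured genes higher and 0.569% lower. The fibroblast gene Col1a2 was highest at 0.91, or 0.51 with normexp. Pdgfra, also of fibroblasts, was detected in control cells alone. It was at least 1.96-fold lower in LPS-treated cells, or at least 1.27-fold with normexp.

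Normalization used limma 3.58.1 in R 4.3.3, and the rest used numpy 2.4.6, pandas 2.3.3 and matplotlib 3.10.9 in Python 3.11.15. The number of arrays limits the precision.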

Additional observations from a re-analysis of the deposited data

How the results depend on the processing

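Of 80 values of the 10 members under 8 corrections, scalings and probe rules, 72 moved by no more than the SD between spots, 8 moved by more and no value at 2-fold or more changed sign. The 8 were Ikbke and Irak3 with normexp (1.13 and 0.72), and, with the median or the mean over probes, Irak1 (-0.04), Irak2 (0.23) and Irak4 (0.09). Irak1, Irak2 and Irak4 alone have a further probe, so every value that could move under those probe rules did. The values of the single-probe members could not move there by construction, and they count among the 72. Normexp adds an offset of 50, which by construction shrinks the differences of dim probes. The number of members at least 2-fold higher was 2, but 1 with normexp, and 0 at 4-fold or when genes dimmer than the median were dropped, a filter that removes Ikbke and Irak3. No alternative gave a member 2-fold lower. Over all measured genes, the counts of higher and lower genes were 297 and 116. They were 170 and 37 with normexp, 747 and 555 with the looser background flag, 1362 and 1178 without a filter, 94 and 15 among the brighter genes, while a 1.5-fold rule gave 731 and 541 and a 4-fold rule 78 and 17. The median of the members was 0.17, and 0.09 among the brighter genes.

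Among the list medians, that of Toll-like receptors and LPS recognition was 0.10 with normexp and 0.24 with loess. That of interleukin-1 family receptors was 0.38 with normexp, 0.77 with loess, 0.61 with the mean over probes and 0.30 without a filter. The median of further adaptors was 0.04 under both of the other probe rules, and that of NF-kB genes was 0.69 with normexp and among the brighter genes. The log2 bounds of Tlr2 and Tbkbp1 were 0.36 and 0.15 with normexp, against 1.17 and 0.54. The causes were not tested except where the construction is given. No paired analysis was possible because each group has 1 array. The SD between spots was 0.25 in the dimmest brightness group, which holds no member, and 0.03 to 0.08 in the others.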
